A study of Drosophila melanogaster with 4 samples.

Results

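The peaks described here are the 1406 binding regions of the CG8924 protein on the X chromosome of Drosophila melanogaster. They are all the rows on X of a list of 7842 peaks that the authors thresholded for reproducibility between replicates, so X held 17.9% of that list. They are set against the 5005 peaks of 3 autosomal arms, with 1475 on 2L, 1712 on 3L and 1818 on 3R. These 3 are the autosomal arms or autosomes meant below, and the peaks elsewhere, 2R included, were not compared. Chromosome membership alone chose the X peaks and no measured value did.

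Chromatin was immunoprecipitated with an antibody against GFP from whole embryos, males and females pooled, aged 0 to 24 h, and the DNA was sequenced. Per the labels, the embryos came from a stably transgenic line in which GFP is fused to the C-terminal end of CG8924, and what drives the transgene is not stated. All 4 biological replicates belong to this single group with no second genotype, treatment or age, and the labels do not say whether they came from separate cultures, so p-values measure the spread between these samples. The notes deposited with the lists say that replicates 2, 3 and 4 made the thresholded list, that replicate 1 is not in it, and that all lists were called against the same control file. Whole embryos mix many cell types, so a peak in few cells and a weak peak in many cannot be told apart.

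In flies, females carry a pair of X chromosomes and males carry a single one. Dosage compensation raises transcription from the male X: the MSL complex, guided by the roX1 and roX2 RNAs, spreads along it from GA-rich entry sites, and its acetyltransferase Mof marks histone H4 there. The fly X is also known to hold more CA and GA dinucleotide repeats than the autosomes. The comparison of X with autosomal arms asks whether CG8924 peaks are placed differently on X.

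The sequences below show what lay under X peaks. The first 8 are the strongest X summits with support in all 4 replicates, each as 101 bases centred on the summit, read from the plus strand of the RefSeq Release 6 (dm6) genome. Capitals mark runs of at least 8 bases that hold only A or T.
lncRNA:Vinr exon, near lncRNA:CR44619 (chrX:12751298-12751398): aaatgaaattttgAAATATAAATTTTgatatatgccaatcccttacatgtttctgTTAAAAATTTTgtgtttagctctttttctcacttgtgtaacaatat
Ugalt promoter (chrX:2703833-2703933): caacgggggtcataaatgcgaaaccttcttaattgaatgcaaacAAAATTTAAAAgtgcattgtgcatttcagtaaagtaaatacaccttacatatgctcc
Gapdh2 promoter (chrX:15867939-15868039): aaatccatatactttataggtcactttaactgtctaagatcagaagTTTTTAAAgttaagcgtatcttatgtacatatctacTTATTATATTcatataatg
CG32772 intron (chrX:4910314-4910414): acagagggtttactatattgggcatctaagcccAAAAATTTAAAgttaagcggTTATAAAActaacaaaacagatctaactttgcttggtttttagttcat
ph-p promoter (chrX:2137290-2137390): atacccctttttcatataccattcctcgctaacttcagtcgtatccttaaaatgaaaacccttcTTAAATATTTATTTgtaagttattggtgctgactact
Tlk intron (chrX:3742162-3742262): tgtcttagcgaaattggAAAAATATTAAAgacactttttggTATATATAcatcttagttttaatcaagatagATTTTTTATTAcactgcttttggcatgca
CHES-1-like intron, near lncRNA:CR43287 (chrX:7706898-7706998): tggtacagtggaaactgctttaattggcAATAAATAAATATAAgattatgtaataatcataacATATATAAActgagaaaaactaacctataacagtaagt
elav and lncRNA:enrr promoter (chrX:523461-523561): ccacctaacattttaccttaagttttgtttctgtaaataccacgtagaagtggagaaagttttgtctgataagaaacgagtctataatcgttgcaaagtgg

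An A/T run stood in 7 of these 8 windows, and the window upstream of elav and lncRNA:enrr had none. The G+C content of the 8 windows was lowest at lncRNA:Vinr, with 23.8%, and highest at elav, with 35.6%. A further 2 X summits are shown that hold the DRE, the site of the promoter factor DREF, whose letters TATCGATA are in capitals. They come from the 4 strongest X summits with these letters, and those whose windows hold no UTR bases are printed. Both windows also hold A/T runs of at least 8 bases, which are left in small letters here.
lncRNA:CR44357 intron, near CG1677 (chrX:7277189-7277289): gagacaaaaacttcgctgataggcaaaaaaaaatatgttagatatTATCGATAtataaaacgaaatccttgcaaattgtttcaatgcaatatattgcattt
CG9992 promoter (chrX:16384958-16385058): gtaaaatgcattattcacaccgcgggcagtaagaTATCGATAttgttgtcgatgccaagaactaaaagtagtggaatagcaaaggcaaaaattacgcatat

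These DRE summits ranked 2060 and 2776 among the 7842 peaks.

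X peaks recurred in replicate 1, which per the deposited notes took no part in choosing them, though this was not tested. The G+C within 50 bp of X summits was 34.5% in the thresholded list and 33.5% in the own list of replicate 1. It was 35.3%, 36.0% and 36.1% in those of replicates 2, 3 and 4, so the thresholded value lay outside their range, towards replicate 1. Support by replicate 1 is therefore not taken as independent. Peaks counted as supported by a replicate when they shared at least 1 bp with a peak among the top 7842 by signal in that replicate's own list. Replicate 1 supported 1208 of the 1406 X peaks, which is 85.9% (95% exact binomial interval 84.0 to 87.7), and 86.1% of the autosomal ones. Replicates 2, 3 and 4, whose reads made the list per the same notes, supported 88.5%, 82.7% and 84.1% of the X peaks. All 4 replicates supported 891 X peaks (63.4%, against 64.7% on the autosomal arms), and 1 X peak had no support. Among X introns replicates 1 and 2 supported 87.2% and 92.6% of peaks, while replicates 3 and 4 supported 78.6% and 82.6%, a wider range than the 85.0% to 86.9% at X promoters. Requiring each peak to cover 50% of the other lowered the support of X peaks by replicates 1 to 4 to 75.7%, 67.1%, 60.3% and 60.7%, against 73.4%, 66.4%, 61.1% and 62.3% of the autosomal peaks.

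Read depth is unknown from these lists, so binomial intervals cover counting error only. To carry the error between libraries, each quantity was also computed in every replicate's own 7842 highest-signal peaks and is given as mean ± SD (n = 4). X and autosomes were then compared within replicates by a two-sided exact sign-flip permutation test, whose smallest possible p with 4 replicates is 0.125. No difference below could therefore reach 0.05, and the number of replicates that share a direction is given instead.

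On X, CG8924 summits lay in introns more often and between genes less often than on the autosomal arms. A summit within 500 bp of a transcription start site (TSS) was called a promoter summit, and the rest were placed by annotation. Of the X summits 686 (48.8%) were at promoters, 570 (40.5%) in introns and 108 (7.68%) between genes. On the autosomal arms these shares were 52.2%, 29.7% and 15.9%. The remaining X summits were few, with 14 in 5′ UTRs, 13 in 3′ UTRs, 11 in other exons and 4 in coding exons.

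The intron excess stood in each library. In the own lists of replicates 1 to 4 introns held 40.98%, 43.3%, 37.1% and 40.4% of X summits, against 30.8%, 30.9%, 28.0% and 30.4% of autosomal summits. The X and autosomal values did not overlap. The difference was 10.4 ± 1.43 percentage points (SD, n = 4), higher on X in 4 of 4 replicates (exact sign-flip permutation p = 0.125, adjusted over 7 classes 0.125). It held against each arm, since introns took 28.0% of summits on 2L, 29.0% on 3L and 31.7% on 3R.

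The intergenic deficit was as regular. Intergenic summits made up 8.84%, 7.77%, 6.70% and 7.37% of X summits in replicates 1 to 4, against 16.2%, 16.4%, 14.2% and 15.2% of autosomal ones. Again the groups did not overlap. The difference was -7.81 ± 0.57 points, lower on X in 4 of 4 replicates (exact permutation p = 0.125, adjusted 0.125). By arm the intergenic share was 16.1% on 2L, 20.3% on 3L and 11.6% on 3R, all above X, though 3R was the nearest.

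The promoter share separated X from the autosomes less well. It was 47.4%, 45.5%, 52.6% and 49.0% on X in replicates 1 to 4 and 51.2%, 50.2%, 55.4% and 51.8% on the autosomal arms. The ranges overlapped between replicates, although X was lower within every replicate, by -3.55 ± 0.91 points (exact permutation p = 0.125, adjusted 0.125). The deficit was absent against 3L, where promoters held 48.8% of summits, as on X, and 2L and 3R had 53.7% and 54.2%. It was wider among stronger peaks, at -8.30 points in the 3921 highest-signal peaks and -6.84 points in those supported by all 4 replicates, against -3.42 points in the whole list. Leaving out any 1 replicate, with support by the other 3 required, gave -6.61 to -5.78 points.

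**Figure D1:**
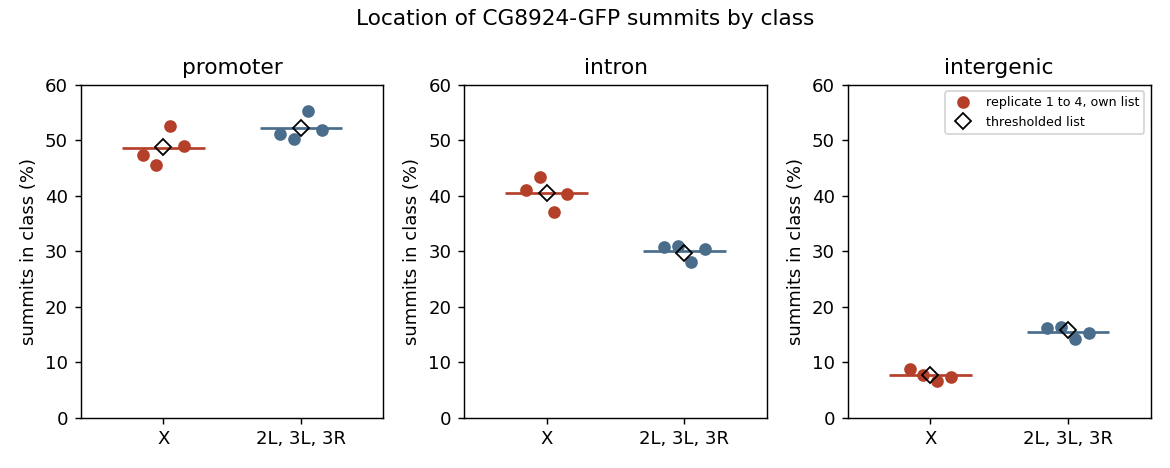
Percent of summits at promoters, in introns and between genes (vertical axes) on X and on 2L, 3L and 3R together (horizontal axes). Filled points are the own lists of replicates 1 to 4 from left to right, lines are their means and open diamonds are the thresholded list. Intron shares on X lie between 37.1% and 43.3%, above all autosomal values, and intergenic shares lie below them.

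X and the autosomal arms also differ in how much of their sequence is intron or intergenic. How far this accounts for the shares was not tested. Introns outside promoter windows make up 43.3% of X bases and 39.2% of autosomal bases, and intergenic sequence 22.6% and 28.0%. Per Mb of its own class, X held 231 promoter summits against 230 on the autosomal arms, so promoter windows carried nearly equal densities. Introns held 55.9 summits per Mb of intron on X against 45.3, a ratio of 1.23 (1.20 ± 0.05 in the own lists, above 1 in 4 of 4). This ratio fell to 1.08, with 57.5 against 53.1 per Mb, when the gene-poor bins next to the centromeres were left out, so the intron excess per base was small outside them. Intergenic sequence held 20.3 summits per Mb on X against 33.9, a ratio of 0.600 (0.606 ± 0.054 in the own lists, below 1 in 4 of 4), and without those bins the ratio was 0.569.

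The intergenic deficit on X was present at every distance from a TSS that was examined. The densities by distance leave out the gene-poor bins next to the centromeres. From 501 to 1000 bp away X intergenic sequence held 51.7 summits per Mb and the autosomal arms 71.4, from 2001 to 5000 bp the densities were 27.5 and 42.1, and from 5001 to 10000 bp they were 19.2 and 32.2. Beyond 20 kb X had 0 intergenic summits in 0.483 Mb, while the autosomal arms had 25 in 0.749 Mb, 33.4 per Mb. In the own lists of replicates 1 to 4 this far density was 2.07, 0, 0 and 2.07 per Mb on X, against 32.0, 34.7, 30.7 and 30.7. X was below the autosomal arms in 4 of 4 replicates in each of the 6 distance ranges.

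The intron density was higher on X in every distance range but 1. From 501 to 1000 bp X introns held 120 summits per Mb against 109, and in the next range, up to 2000 bp, 93.0 against 75.9. From 2001 to 5000 bp the densities were 59.5 and 50.3, and from 5001 to 10000 bp 50.1 and 42.8. From 10001 to 20000 bp X was below, with 29.3 against 34.2, and beyond 20 kb above, with 25.5 against 19.7. In the own lists X was higher in 4 of 4 replicates up to 5000 bp and beyond 20 kb, higher in 2 from 5001 to 10000 bp and higher in 1 from 10001 to 20000 bp. With the gene-poor bins kept in, the density beyond 20 kb was 6.57 per Mb on the autosomal arms and 23.7 per Mb on X, so the autosomal value turned on those bins.

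**Figure D2:**
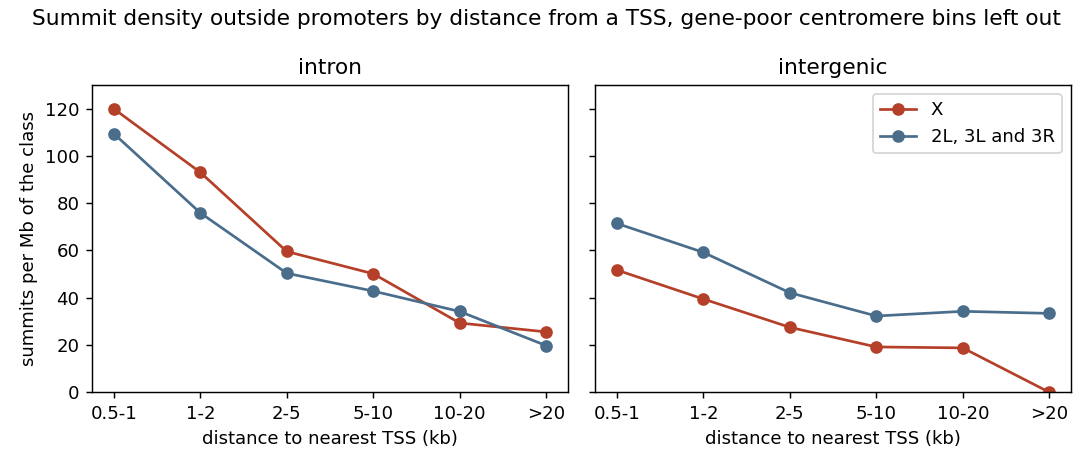
Thresholded summits per Mb of intron (left) and of intergenic sequence (right) by distance from the nearest TSS in kb, for X and for 2L, 3L and 3R together, without the gene-poor bins next to the centromeres. The intergenic line of X runs below the autosomal one at every distance and reaches 0 beyond 20 kb, while the intron lines cross and end at 25.5 and 19.7 per Mb.

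The intronic X summits lay mostly in long genes. Of the 570, 553 lay in a protein-coding gene, and 243 coding genes hosted them. Counted once per summit, the median host length was 31.7 kb against 29.4 kb on the autosomal arms. Hosts over 20 kb held 70.9% of these summits on X against 64.4%. These shares were not compared with the share of intron bases in such genes, so an excess in long genes was not tested. X coding genes are somewhat longer in general, with a median of 2521 bp against 2080 bp and 9.02% over 20 kb against 7.03%. Of the X hosts 31 (12.8%) held 5 or more intronic summits, against 68 of the 722 autosomal hosts (9.42%), and 46.9% and 46.5% held more than 1. The host genes named next were chosen after their values were seen, as those with the most summits.

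The gene kirre, which encodes an immunoglobulin-domain adhesion protein used in myoblast fusion, led with 17 intronic summits over 394 kb, and the own lists of replicates 1 to 4 placed 17, 20, 13 and 12 there. CG1677 held 16 over 125 kb, and Ten-a, a teneurin of synaptic matching, held 13 over 292 kb. Per 10 kb of gene, kirre held 0.43 and Ten-a 0.45 of these summits, against 2.48 in Raf. So kirre and Ten-a were high by count and not by density. Raf, the MAP kinase kinase kinase of RAS signalling, held 12 within 48.4 kb, with 9, 12, 13 and 13 in the own lists. CHES-1-like, a forkhead factor gene, was among the densest, with 11 in 27.0 kb, and CG14434 held 8 in 15.3 kb. Tlk (tousled-like kinase) held 11, and Hr4 (a nuclear receptor), Mnt (a partner of Max) and Smr (a co-repressor) held 8 each.

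X was neither rich nor poor in peaks for its length. X held 59.7 summits per Mb and the autosomal arms 59.8, a ratio of 0.999, and the own lists gave ratios of 1.01, 1.00, 0.974 and 0.957, above 1 in 2 replicates and below it in 2 (0.986 ± 0.025, exact permutation p = 0.5). Without the gene-poor bins next to the centromeres X fell below, with 63.4 against 68.4 per Mb. Counted per 100 distinct TSSs X held 36.0, between 3L with 37.7 and 3R with 33.2. The spread among the autosomal arms was thus as wide as the gap between X and their total.

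Neighbouring summits stood farther apart on X. The median spacing was 5854 bp on X and 5081 bp on the autosomal arms, a log2 ratio of 0.20. In replicates 1 to 4 the X medians were 5932, 5757, 5236 and 5446 bp and the autosomal medians 5258, 5290, 4573 and 4850 bp, and X was wider in 4 of 4 replicates (log2 ratio 0.16 ± 0.03, exact permutation p = 0.125). Among peaks supported by replicates 2, 3 and 4, without replicate 1, the log2 ratio was 0.11. The close end did not differ in this way. The lower quartile was 1652 bp against 1660 bp, and 16.2% of X neighbours lay under 1 kb apart against 16.0%. X had 1359 distinct peak intervals, of which 47 (3.46%) held 2 summits, against 3.01% with 2 or 3 summits on the autosomal arms.

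Peaks followed TSSs loosely along X. In the 22 bins of 1 Mb outside the gene-poor end, X held 19 to 97 summits with a median of 69.5, and the autosomal bins 20 to 121 with a median of 68. The richest bin per TSS was the fourth, with 72 summits for 112 TSSs, and the poorest was bin 21, with 19 summits for 136 TSSs. Across bins, which share libraries and differ in base composition, Pearson's r between summits and TSSs was 0.45 and Spearman's rho 0.42 on X (22 bins), and 0.48 and 0.48 on the autosomal arms (73 bins), as a description.

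**Figure D3:**
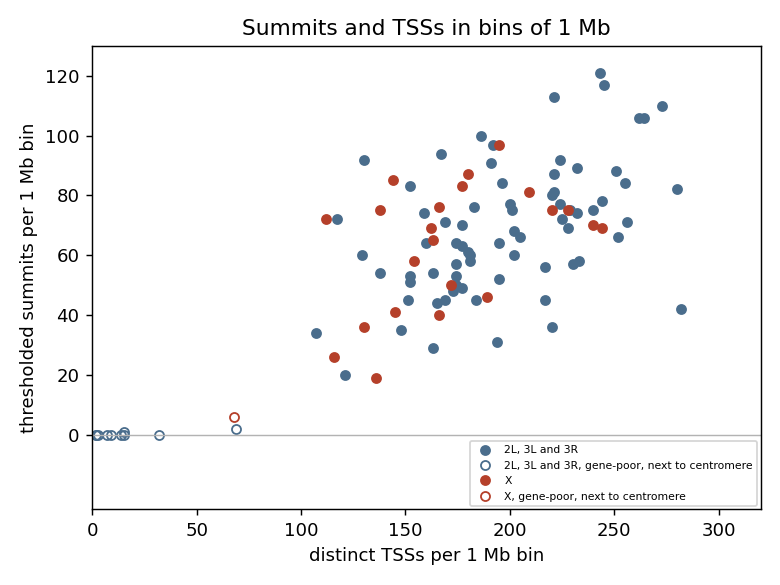
Thresholded summits (vertical axis) against distinct TSSs (horizontal axis) in bins of 1 Mb, for X and for 2L, 3L and 3R. Open points are the gene-poor bins next to the centromere. The filled X points range from 19 to 97 summits and the filled autosomal points from 20 to 121.

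The densest 100 kb of X, from 6800001 to 6900000, held 22 summits, 12 of them at promoters and 9 in introns, and the own lists of replicates 1 to 4 held 20, 21, 23 and 19. It spans CG14434, CG43736, C3G (an exchange factor for the GTPase Rap1), Nf-YC (a CCAAT-binding subunit) and Tmf. The next, from 11600001 to 11700000, held 18 summits around the receptor phosphatase gene Ptp10D and bif, which acts on the actin cytoskeleton. The one after, from 9600001 to 9700000, held 17 around Ptpmeg2, nej (the histone acetyltransferase CBP/p300) and btd (a head gap gene). Of the 236 X windows of 100 kb, 30 (12.7%) held no summit, against 179 of 839 autosomal windows (21.3%). Most of the autosomal ones lay in the gene-poor bins next to the centromeres, and without those bins the shares were 17 of 220 (7.73%) on X and 74 of 731 (10.1%). Windows with 16 or more summits made up 3.18% on X and 7.11% on the autosomal arms without those bins, and 2.97% and 6.20% with them. These shares were not tested across replicates.

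The longest stretch of X without a summit ran for 812 kb from 21631755 to 22443600. It starts beside lncRNA:flam, the flamenco piRNA locus, ends at CG14621, and covers 24 TSSs and 21 coding genes. No replicate placed one of its 7842 highest peaks there, and the full lists of 30000 peaks held 1, 2, 1 and 0. How well reads can be placed in this stretch could not be checked, so missing peaks there need not mean missing binding. The next stretch lay closer to the centromere, from 22491244 to 22833755 between l(1)G0196 and mir-2491. The own lists of replicates 1 to 4 held 4, 2, 2 and 1 peaks in it, and the full lists 14, 5, 8 and 3. The stretch after that lay between amn and AnxB10, from 19889584 to 20173712. It covers 54 TSSs, and the full lists held 16, 16, 16 and 12 peaks in it. The own lists held 1, 1, 2 and 2 there, so most of the peaks present had low signal.

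Peaks at promoters and in intergenic sequence had lower signal on X than on the autosomal arms in every replicate, and in introns the order was the opposite in 3 of 4. The signal value is the authors' own height of a peak and is compared only within a list. Across all classes the median signal was 505 on X and 523 on the autosomal arms, a log2 ratio of -0.05, and the own lists gave -0.07, -0.03, -0.11 and -0.05 (lower on X in 4 of 4, exact permutation p = 0.125). Among thresholded peaks supported by 3 replicates, when each replicate in turn was left out of this filter, the log2 ratio was -0.09. At promoters the medians were 496 on X and 553 on the autosomal arms (log2 ratio -0.16), and the own lists gave -0.21, -0.07, -0.13 and -0.12 (-0.13 ± 0.06, 4 of 4 lower, exact permutation p = 0.125). In intergenic sequence they were 454 and 484 (log2 ratio -0.09), and the own lists gave -0.11, -0.09, -0.05 and -0.14 (4 of 4 lower, exact permutation p = 0.125). In introns X was at 535 against 504 (log2 ratio 0.09), and the own lists gave 0.07, 0.05, -0.04 and 0.04, higher in 3 and lower in 1 (exact permutation p = 0.375). The log2 ratio in introns exceeded that at promoters by 0.16 ± 0.09, in 4 of 4 replicates (exact permutation p = 0.125). Pooled embryos hold fewer copies of X than of autosomes, and fewer copies and weaker binding cannot be told apart in a signal value.

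X took a smaller share of the strong peaks than of the weak ones. Among the peaks of the 4 arms X held 18.7% to 21.4% of those ranked 1 to 500 in each replicate's list and 18.2% to 20.8% of those ranked above 1000 and up to 2000. It held 22.4% to 23.2% of ranks 4001 to 8000 and 22.2% to 24.5% of ranks 8001 to 15000. For comparison, X has 21.1% of the distinct TSSs and 22.0% of the length of these arms. The order was not smooth, since ranks 501 to 1000 gave 18.1% in replicate 3 and 22.6% to 23.8% in the others.

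**Figure D4:**
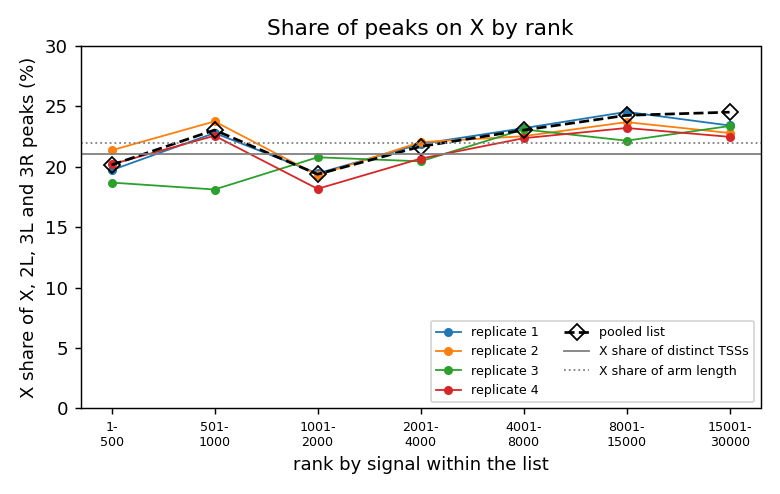
X share of the peaks on X, 2L, 3L and 3R in percent (vertical axis) by rank of signal (horizontal axis) in the list of each replicate and in the pooled list. Horizontal lines give the X share of distinct TSSs (21.1%) and of arm length (22.0%). The shares of ranks 4001 to 15000 lie mostly above those of ranks 1 to 500.

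The thresholded X peaks ran from a signal of 296.2 to 7750. Just inside the threshold the last 3 X peaks ranked 7831, 7832 and 7837, and just outside it the next X peaks of the pooled list ranked 7845, 7847 and 7848, with a signal of 295.7 each.

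The strongest X peaks were at genes of unrelated kinds. Among the 20 highest summits seen in every replicate were 12 promoter summits, 6 intronic ones, 1 in an exon of a non-coding gene and 1 between genes. The first lay in an exon of lncRNA:Vinr, a long non-coding RNA gene, 519 bp from the TSS of lncRNA:CR44619, and ranked 4 in the thresholded list and 3, 29, 4 and 29 in replicates 1 to 4. The same interval held a further summit at rank 77. The promoter of Ugalt, which encodes a UDP-galactose transporter, ranked 5 (8, 5, 13 and 4 in the replicates), with its summit 31 bp upstream of the TSS. Gapdh2, the glycolytic glyceraldehyde-3-phosphate dehydrogenase gene, ranked 14 (28, 10, 7 and 9), with its summit 156 bp upstream. These peaks were thus near the top of every library.

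The Polycomb gene pair ph-p and ph-d, neighbours on X, followed. The ph-p peak, from 2136637 to 2138249, held summits at ranks 30 and 69, and its interval ranked 44, 7, 41 and 12 in the replicates. Between the genes a summit at position -861 from the TSS of ph-d, thus upstream of it, ranked 67, and a weaker one at the ph-d promoter ranked 3208. Intronic summits followed in CG32772 (rank 18), Tlk (38), CHES-1-like (58), Tis11 (70, an mRNA decay factor), NFAT (84) and Raf (114). The remaining promoter summits belonged to elav and lncRNA:enrr (61), Hex-A (65, hexokinase), bves (76), Atf3 (78, a bZIP factor), CBP (102, here the symbol of a calcium-binding protein gene), MFS10 (112, a membrane transporter) and Ptpmeg2 (113, a tyrosine phosphatase).

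A thresholded summit stood at the promoter of 691 of 2196 X coding genes (31.5%), against 2812 of 8817 (31.9%) on the autosomal arms. The own lists gave 31.5%, 29.4%, 31.2% and 30.2% on X and 31.3%, 30.9%, 32.0% and 31.8% on the autosomal arms. X was lower in 3 replicates and higher in 1 (-0.93 ± 0.86 points, exact permutation p = 0.25), and against 2L alone X was higher by 1.02 points. Among the 3921 highest-signal peaks the difference was -3.23 points, among peaks supported by all 4 replicates -2.26 points, and among genes with 1 TSS -3.00 points. Of the annotated ncRNA genes, 56 of 483 (11.6%) had one on X against 9.59%. Among small RNA genes of X, 2 of 24 tRNA and 2 of 31 snoRNA genes had one. The counts of the gene lists that follow are read against 31.5%.

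X promoter summits sat a little farther from the TSS. Their median distance was 134 bp on X and 108 bp on the autosomal arms, with 67.2% and 68.8% upstream. From 100 bp upstream to 99 bp downstream lay 23.9% upstream and 16.0% downstream on X, against 27.2% and 19.4%. In the own lists the medians were 149, 123, 136 and 126 bp on X and 119, 99.5, 109 and 102 bp on the autosomal arms, so X was farther in 4 of 4 replicates.

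In the sex determination and dosage compensation list 2 of 9 X genes had a promoter summit. Sxl, the master switch of female development, had its best one at rank 949 (917, 786, 991 and 1238 in the replicates), 415 bp downstream of a TSS, and 4 summits lay in the gene. The roX2 RNA gene had one at rank 7770, close to the end of the list, and 1 replicate supported it. The nearest summit was 5943 bp from roX1 and 3748 bp from mof, the acetyltransferase gene. The X-counting genes sisA, sc, run and upd1 had no promoter summit, nor had any of the 4 achaete-scute complex genes (ac, sc, l(1)sc and ase), which specify sensory bristles.

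Most members of the chromatin and ribosomal protein lists on X had promoter summits. The lists were chosen with earlier results of these data known, so their shares describe the listed genes only. Of 13 chromatin regulators 10 had one (76.9%), with 10, 11, 9 and 10 in the own lists. They were led by ph-p, by fs(1)h (rank 2090, a BET bromodomain protein), by HP1b (2134, a heterochromatin protein) and by trr (2543, a histone H3 lysine methyltransferase). In this list mof, e(y)3 and Taf9 had none. Of 14 cytoplasmic ribosomal protein genes 12 had one (85.7%), with 11, 10, 12 and 13 in the own lists. Their peaks were moderate, led by RpL22 at rank 1581, RpS10b at 2137, RpL17 at 3816 and RpS19a at 3848. RpL7A and RpS14b had none. RpS14b is a near-identical neighbour of RpS14a, which had a promoter summit at rank 4039, and how well reads of the pair can be placed was not tested.

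In the metabolic and cytoskeletal lists some members were near the top and others near the end. Of 4 carbohydrate genes 3 had a promoter summit, with Gapdh2 and Hex-A as above and Zw, the first enzyme of the pentose phosphate pathway, at rank 7745, with support in 3 replicates. Pgd, the third enzyme of that pathway, had none. Of 8 actomyosin, muscle and adhesion genes 5 had one, led by sqh (rank 691, the myosin regulatory light chain), Act5C (1089, a cytoplasmic actin), the integrin gene if (5410) and sn (6609, fascin). The muscle troponin genes wupA and up had none.

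Neural and signalling genes were mixed. Of 14 neural genes 7 had a promoter summit, among them elav (the neuronal RNA-binding protein), dnc (rank 271, the cAMP phosphodiesterase), fne (3223, an elav relative) and shi (3464, dynamin). The channel genes para, Sh and cac had none. Of 12 patterning genes 5 had one, led by sgg (rank 157, the GSK3 kinase of Wnt signalling; 156, 198, 165 and 137 in the replicates), btd (1708), oc (2478) and the Hedgehog pathway kinase gene fu (3719). The gap gene gt, the beta-catenin gene arm and dsh had none. Of 10 genes of Notch, RAS and JAK/STAT signalling 4 had one, namely the phosphatase gene csw (4065), Raf (4296), the cytokine receptor gene dome (5028) and N, the Notch receptor gene (7701, supported by 1 replicate). The ligand genes upd1, upd2 and upd3 and the kinase gene hop had none.

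Of 11 cell cycle and repair genes 3 had a promoter summit, namely mei-41 (rank 625, the ATR kinase), fzr (3351, an activator of the anaphase-promoting complex) and mus101 (5562), and the own lists gave 6, 3, 2 and 2. Of 13 classical eye, bristle and wing marker genes 5 had one, led by cm (1055) and car (1870), both for vesicle transport to pigment granules, r (5863, pyrimidine synthesis) and ct (6493, a homeobox gene). The markers y, w and v had none. None of 11 eggshell and yolk genes, which serve oogenesis in adult females, had one, and none of 25 chemosensory receptor genes did. These 2 lists were also at 0 in the own lists of all 4 replicates. CG8924 itself lies on X, from 15941077 to 15944449, and its nearest thresholded summit was 3879 bp from its TSS.

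The A/T-rich trough under the summits was shallower on X. Within 50 bp of the summit G+C was 34.5% on X and 33.8% on the autosomal arms, and 500 bp away it was 42.3% and 43.5%. In the own lists X was higher at the summit by 0.66 ± 0.33 points and lower in the flanks by -1.06 ± 0.25 points. At promoters X summits had 36.8% against 35.4%, while in introns they had 32.2% against 32.4% and between genes 30.9% against 30.8%. An A/T run of at least 8 bases stood in 72.0% of X summit windows and 51.3% of their flanks, against 74.9% and 48.0% on the autosomal arms. X was lower at the summit in 4 of 4 replicates (-2.62 ± 1.88 points, exact permutation p = 0.125, adjusted over 12 motifs 0.167). The excess of summits over flanks was 18.6 ± 2.25 points on X and 24.8 ± 5.17 points on the autosomal arms.

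**Figure D5:**
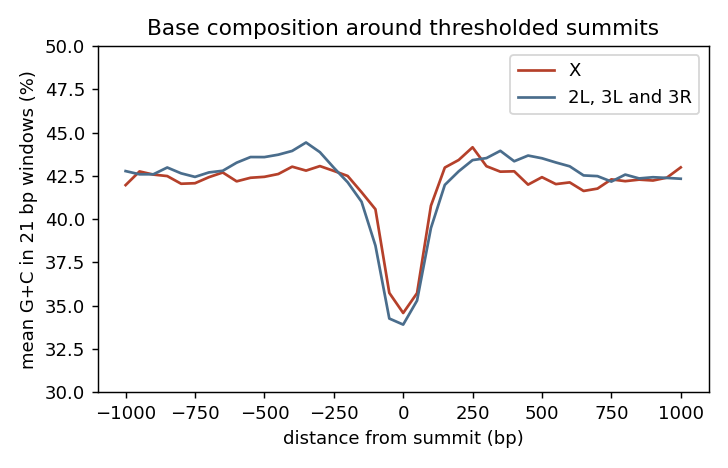
Mean G+C in percent in windows of 21 bp (vertical axis) by distance from thresholded summits in bp on the plus strand (horizontal axis, from -1000 to 1000), for X and for 2L, 3L and 3R. Both lines dip at the summit, to 34.6% on X and 33.9% on the autosomal arms, and between 300 and 650 bp to either side the line of X lies below the autosomal one.

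Dinucleotide repeats were more common around X summits, both under them and beside them. Windows of 101 bp were searched on both strands at the summit, 500 bp to each side and at all TSSs of the arms, and a match describes letters and not a bound site. GAGAGA, the core of the GAGA factor site, stood in 4.98% of X summit windows, 6.40% of X flanks and 4.25% of X TSS windows, against 4.36%, 4.82% and 3.74% on the autosomal arms. CACACA stood in 9.96% of X summits, 13.9% of X flanks and 9.93% of X TSS windows, against 8.61%, 9.89% and 8.13%. CA runs of at least 10 bases stood in 1.64% of X summits, 3.41% of X flanks and 1.31% of X TSS windows, against 1.24%, 1.67% and 0.691%. So X exceeded the autosomal arms in the flanks and at all TSSs as well as at summits.

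In the own lists the excess of X at summits was 1.11 ± 0.45 points for GAGAGA, 1.78 ± 1.38 for CACACA and 1.17 ± 0.45 for CA runs, in 4 of 4 replicates each (exact permutation p = 0.125, adjusted 0.167). For GAGAGA it was 0.62 points in the thresholded list, and 0.21 to 0.60 among the peaks supported by 3 replicates when each replicate in turn was left out. Whether the repeats were rarer under X summits than beside them differed between libraries and between repeats. CACACA was rarer at X summits than in X flanks in 3 of 4 replicates, and CA runs in 2 of 4. In replicate 1 GAGAGA stood in 4.49% of X summits and 6.60% of X flanks, while in replicates 2, 3 and 4 it stood in 6.34%, 6.70% and 7.08% of summits and 5.92%, 6.52% and 5.90% of flanks.

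The promoter motifs TATCGATA and GGTCACAC were more common at X summits than in X flanks, and less common there than at X TSSs. Only 48.8% of the X summits were at promoters, and shares for promoter summits alone are not given, so these sets are unlike. TATCGATA stood in 34 X summits (2.42%), 0.320% of X flanks and 5.02% of X TSS windows, against 1.86%, 0.250% and 3.50% on the autosomal arms (0.56 ± 0.30 points higher on X, 4 of 4, exact permutation p = 0.125, adjusted 0.167). GGTCACAC, the core of the site of the promoter factor M1BP, stood in 1.42% of X summits, 0.142% of X flanks and 4.20% of X TSS windows, with 1.68% of autosomal summits. CAGGTAG, the site of the early embryonic activator Zelda, stood in 0.427% of X summits and 0.391% of X flanks, and the E-box CACGTG in 0.853% and 1.24%. TATATA, which overlaps the A/T runs, stood in 12.4% of X summits and 7.01% of flanks, against 12.6% and 5.65%, and its direction at summits differed between replicates.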

How the data were processed

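Chromatin immunoprecipitation sequencing of 1 group of 4 replicates was read from narrowPeak lists on dm6, per the labels. The signal per peak and its −log10 q-value are the authors' deposited values, and for the aligner and the peak caller nothing is given in the sources used here. The pooled list and those of the replicates have 30000 peaks each. Depth is unknown. The members, gene lists and tests were chosen with earlier results of these data known.

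Genes came from Ensembl release 115 and sequence from RefSeq Release 6. Summits within 500 bp of a TSS were promoter summits, and the others took the first of UTR, coding exon, other exon, intron or intergenic that held them. Gene-poor bins were those of 1 Mb from the centromere end up to the first with at least 100 TSSs. Benjamini-Hochberg adjustment was made over 7 classes or 12 motifs. Named genes were CG8924, those nearest the 20 highest X summits seen in 4 replicates, up to 4 per list by signal (of 13 lists), and those at the ends of the longest empty stretches and in the densest windows. List members e(y)1 and dec-1 were matched by synonym as Taf9 and dec. Alternatives covered peaks used, replicates left out, single autosomal arms, promoter windows, units counted and arm extent. Steps were tested on simulated lists with Python 3.11.15, pandas 2.3.3, NumPy 2.4.6, matplotlib 3.10.9, SciPy 1.17.1 and statsmodels 0.14.6.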

Additional observations from a re-analysis of the deposited data

Results flagged for a closer look

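The ratio of intergenic density on X to that on the autosomal arms was 0.6871 in the own list of replicate 1, far from 0.591, 0.572 and 0.575 in replicates 2, 3 and 4. Per the deposited notes, replicate 1 took no part in the thresholded list, where the ratio was 0.600. The gap was past Dixon's limit for 4 values, and 25 measures were screened, of which chance flags about 1 in 20.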

How the results depend on the processing

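Values are X against the autosomal arms, as differences in percentage points for shares and GAGAGA, ratios for densities and log2 ratios for spacing and signal. The intron share difference stayed positive and the intergenic difference and density ratio stayed below 0 and 1 in all 18 alternatives each. Spacing stayed wider and signal lower on X in 16 each, GAGAGA higher in 17, and the intron density ratio stayed above 1 in 18. The causes of the shifts were not tested. A change is given where it exceeded 1 SD of the replicates' own lists. In the 3921 highest-signal peaks the promoter share difference was -8.30, the density ratio 0.946, spacing 0.13, genes with a promoter peak -3.23, intron share 15.8, intron density 1.34 and intergenic density 0.515. Among peaks supported by all 4 replicates promoter share was -6.84, genes -2.26, intron share 13.5 and intron density 1.32. In the own list of replicate 1 intergenic share was -7.32 and intergenic density 0.687. In that of replicate 2 promoter share was -4.71, spacing 0.12, genes -1.57 and intron share 12.4. In that of replicate 3 density was 0.974, signal -0.11, GAGAGA 1.49, intron share 9.05, intron density 1.17 and intergenic share -7.47. In that of replicate 4 density was 0.957, spacing 0.17, genes -1.61, GAGAGA 1.50 and intron density 1.15. Keeping peaks supported by the other 3 replicates, so that 1 is left out (without replicate 1 to 4), gave promoter share -6.61 to -5.78, spacing 0.11 to 0.22, signal -0.0945 to -0.0902, genes -2.44 to -1.92, intron share 12.6 to 13.2, intron density 1.27 to 1.32 and intergenic share -7.98 to -7.40. Against 2L alone promoter share was -4.90, density 0.952, spacing 0.24, genes 1.02 (reversed), intron share 12.5 and intron density 1.16. Against 3L alone promoter share was 0.0175 (reversed), spacing 0.26, intron density 1.17, intergenic share -12.6 and intergenic density 0.530. Against 3R alone promoter share was -5.45, density 1.05 (reversed), spacing 0.14, intron share 8.80, intron density 1.34, intergenic share -3.87 and intergenic density 0.743. With a promoter window of 200 bp promoter share was -6.12, genes -2.10, intron share 13.0 and intergenic density 0.754, and with 1000 bp intergenic share was -7.10. Per TSS the density ratio was 1.05 (reversed), spacing relative to TSS spacing 0.13, signal at promoters -0.16 and genes with 1 TSS -3.00. Without the gene-poor bins next to the centromere density was 0.926 and intron density 1.08. Support by replicate 1 was 75.7% with 50% overlap (60.3% to 67.1% by the other replicates) and 99.2% against its full list. The arm extent, the intron and intergenic alternatives and the classes from protein-coding genes were chosen after seeing the data. X and the autosomal arms were compared within each replicate, and with 1 group of samples no replicate block between groups could be fitted. Without read counts, depth limits cannot be given.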
